A study of Mus musculus with 48 samples.

Results

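The genes described here are 7 that neurons switch on when they are active and that shape or carry signals at synapses: *Bdnf*, *Nptx2*, *Inhba*, *Homer1*, *Vgf*, *Scg2* and *Pcsk1*. They were chosen by name, as known activity-induced plasticity and secreted genes, and not by a threshold on their values. Earlier results of these data were known when they were chosen. All 7 were found by gene identifier among the 46983 genes of the count tables, and all 7 had more than 10 counts in total and were tested with 19970 genes. Bulk RNA from the brains of male C57Black/6 mice, 3 months of age, was sequenced in 48 libraries of 11 groups. MCAO mice had the middle cerebral artery coagulated and cut under isoflurane through a drilled hole, so that its flow was lost for good, which leaves a small infarct in the parietal cortex. Sham mice went through the operation without coagulation of the artery, and control tissue was intact cortex of mice that were not operated on. MCAO libraries numbered 5 at 3 h, 5 at 12 h, 4 at 24 h, 5 on day 3 and 5 on day 7, with 4 sham libraries at each of these times and 4 control libraries. The study's methods describe the tissue as the injured cortical region with its unaffected surroundings, and its results describe it as most of the injured hemisphere. A library therefore mixes lesion and spared tissue, and fewer cells of a type cannot be told apart from less RNA per cell. The study counts its bulk replicates as mice, and the labels give them letters (A to E), so a p-value measures the spread between these libraries.

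Firing of a neuron raises calcium, which activates transcription factors such as CREB already present in the nucleus, and a first wave of genes, among them *Fos*, *Egr1* and *Npas4*, is transcribed within minutes. Genes of the kind studied here are transcribed with or after that wave, and their proteins act at the synapse or leave the cell. *Bdnf* encodes brain-derived neurotrophic factor, the ligand of the TrkB receptor. *Inhba* encodes the chain from which activin A is built, a ligand of the TGF-beta family. *Nptx2* encodes a secreted pentraxin (Narp) that gathers AMPA receptors at synapses, and *Homer1* encodes postsynaptic scaffold proteins, including the short, activity-induced form Homer1a. *Vgf* and *Scg2* encode granin-family proteins of dense-core vesicles that are cut into secreted peptides, and *Pcsk1* encodes prohormone convertase 1/3, one of the enzymes that cut them.

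Libraries held 1522668 to 2826735 counts on genes. Levels are given below as CPM (counts scaled to a common library size) after TMM scaling, a correction for differences in library composition. The kit reads only the polyadenylated 3′ end of a transcript, so forms that share an end are counted together. One sham library at 3 h (replicate C) held 549.5 CPM of pituitary markers (*Gh*, *Prl*, *Cga* and *Pou1f1* summed), against 0.0 to 0.545 in the other 3 of its group, and control replicate A held 499 CPM of choroid plexus markers. Striatal markers varied within groups, from 225 to 2871 CPM among the MCAO libraries at 24 h. The 12 neuron markers summed to between 7210 and 13140 CPM in every library, and none of them was at 0 throughout a group.

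On GRCm38 (Gencode vM21) the genes lie on 4 chromosomes. *Scg2* lies at chr1:79434669-79440120 on the minus strand, and the others lie on the plus strand: *Bdnf* at chr2:109674700-109727007, *Vgf* at chr5:137026392-137033351, *Nptx2* at chr5:144545902-144557478, *Inhba* at chr13:16011851-16031621, *Pcsk1* at chr13:75089826-75134861 and *Homer1* at chr13:93299635-93405129. *Bdnf* has 11 annotated transcripts with 9 start sites and 1 shared end, so its count sums all its promoters. *Homer1* has 12 transcripts with 9 ends, and its count sums the short and long forms. Other annotated genes overlap *Bdnf* (1, on the opposite strand), *Inhba* (2, opposite strand) and *Homer1* (2, same strand), and 0 of these have a row of their own in the tables used here.

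The promoters are shown because these genes are known as targets of CREB, which binds the cyclic AMP response element (CRE), TGACGTCA. RefSeq windows (GRCm38.p6) were found for 5 of the 7 genes, 12 windows in all, 7 of them of *Bdnf*; there was none for *Nptx2* and *Vgf*. In the 250 bases before each start, on both strands, the full CRE stood in 2 of the 12 windows, those of *Scg2* and *Pcsk1*, and in 1.55% of all 32851 windows of the same length. The short form TGACG, which the full CRE contains on each strand, stood in 4 of the 12 windows, 1 each of *Scg2*, *Pcsk1*, *Homer1* and *Bdnf*, and in 17.8% of all windows. The AP-1 motif TGANTCA, which FOS and JUN proteins bind, stood in 1 window of *Bdnf* and in 6.75% of all windows. A match of letters is a description and not a binding site. The 4 windows with the short form are given 5′ to 3′ on the strand of the gene, with matches to the full CRE or its short form in capitals, which reads CGTCA where it lies on the other strand. They are chr1:79440027-79440276 (*Scg2*, minus strand), chr13:75089607-75089856 (*Pcsk1*, plus strand), chr13:93303507-93303756 (*Homer1*, plus strand) and chr2:109692186-109692435 (*Bdnf*, plus strand).
Scg2: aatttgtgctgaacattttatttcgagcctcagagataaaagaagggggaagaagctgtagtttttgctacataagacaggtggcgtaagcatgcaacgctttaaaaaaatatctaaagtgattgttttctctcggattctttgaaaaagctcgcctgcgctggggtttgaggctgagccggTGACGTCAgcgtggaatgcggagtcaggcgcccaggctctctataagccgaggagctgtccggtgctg
Pcsk1: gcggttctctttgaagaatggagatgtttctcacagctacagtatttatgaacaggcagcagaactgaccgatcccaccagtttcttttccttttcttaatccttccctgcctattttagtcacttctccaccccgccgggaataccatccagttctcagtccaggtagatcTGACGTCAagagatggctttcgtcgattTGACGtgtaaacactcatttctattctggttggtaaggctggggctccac
Homer1: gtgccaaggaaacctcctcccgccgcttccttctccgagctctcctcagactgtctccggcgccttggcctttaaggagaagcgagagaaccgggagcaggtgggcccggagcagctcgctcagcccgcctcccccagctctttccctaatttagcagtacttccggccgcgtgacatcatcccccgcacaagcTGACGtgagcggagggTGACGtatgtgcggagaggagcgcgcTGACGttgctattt
Bdnf: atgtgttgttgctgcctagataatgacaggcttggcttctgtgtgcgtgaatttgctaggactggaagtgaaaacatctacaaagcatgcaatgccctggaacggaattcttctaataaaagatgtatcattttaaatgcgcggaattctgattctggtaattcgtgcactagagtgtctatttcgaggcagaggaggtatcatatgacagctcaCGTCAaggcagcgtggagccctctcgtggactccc

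The highest group mean of each of the 7 genes was that of MCAO at 3 h. The lowest was MCAO on day 3 for *Bdnf*, *Vgf* and *Scg2*, MCAO on day 7 for *Inhba* and *Homer1*, sham at 24 h for *Nptx2* and control for *Pcsk1*. Between the highest and lowest mean lay 7.85-fold for *Nptx2*, 5.52-fold for *Inhba*, 5.04-fold for *Bdnf*, 3.51-fold for *Homer1*, 2.62-fold for *Pcsk1*, 2.39-fold for *Scg2* and 1.99-fold for *Vgf*. When the 11 means of a gene were put in order, nearly all neighbours differed by less than the larger SD of the pair: all 10 gaps for *Scg2*, 9 of 10 for *Nptx2*, *Inhba*, *Homer1*, *Vgf* and *Pcsk1*, and 8 of 10 for *Bdnf*. For *Bdnf*, *Inhba* and *Homer1* a gap beyond it separated MCAO at 3 h from sham at 3 h, the next group, and for *Nptx2* it separated MCAO at 3 h from MCAO at 24 h. The others were control over sham at 24 h for *Vgf*, sham at 3 h over control for *Pcsk1* and sham on day 7 over sham at 24 h for *Bdnf*.

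**Figure D1:**
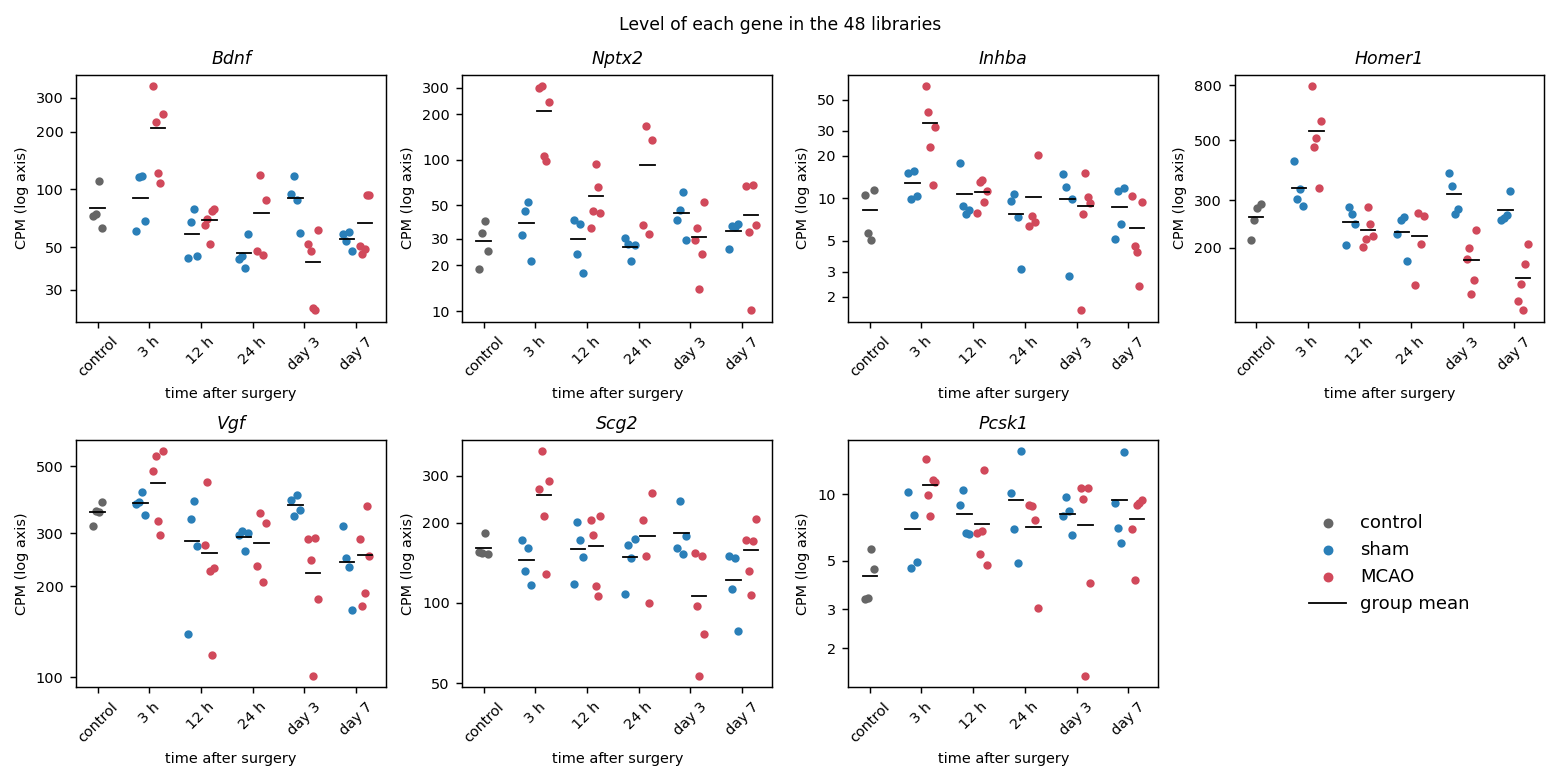
Level of each of the 7 genes in every library, in CPM on a log axis, with control, sham and MCAO libraries as points and group means as black lines, against time after surgery. MCAO at 3 h holds the highest mean of every gene, from 11.1 CPM for *Pcsk1* to 541 CPM for *Homer1*, and *Homer1* on days 3 and 7 shows MCAO libraries below all sham libraries.

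The comparison of MCAO with sham at 3 h asks what the loss of blood flow adds to the surgery in the first hours. *Nptx2* rose 5.48-fold and passed the test, while the other 6 genes were higher on average and did not pass. Calls came from the quasi-likelihood test of edgeR and needed an adjusted p (Benjamini-Hochberg, all 19970 genes) below 0.01 and a log2 fold change beyond 0.58 in either direction. By that rule 1 of 7 was called, beside 0.11% of all genes. The median log2 fold change was 0.80 over the 7 genes and 0.00 over all genes, and 5 of the 7 had an unadjusted p under 0.05, against 8.45% of all genes.

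*Nptx2* measured 296, 308, 106, 97.3 and 240.1 CPM in MCAO replicates A to E at 3 h and 32.0, 46.1, 52.9 and 21.3 CPM in sham replicates A to D. All 5 MCAO libraries lay above all 4 sham libraries, in a high set of 3 (A, B and E) and a lower one of 2 (C and D). The means were 209.5 ± 102 CPM (SD, n = 5) and 38.1 ± 14.2 CPM (SD, n = 4), and the log2 fold change was 2.45 ± 0.42 (SE) with an adjusted p of 0.00132. The call was lost without sham replicate A (2.38, adjusted p = 0.014) or sham replicate D (2.26, adjusted p = 0.0215), and was kept without any one of the 5 MCAO libraries or without sham replicate C, which held the pituitary markers (2.66, adjusted p = 0.00473). Striatal markers were high in MCAO replicates A and B (1675 and 1487 CPM) and in sham replicate D (1185 CPM), against 252 to 519 CPM in the other 6 libraries of this time, and their part in the result was not tested.

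The secreted ligands *Bdnf* and *Inhba* were higher in the same MCAO libraries. *Bdnf* measured 347, 225, 122, 108 and 249 CPM in MCAO replicates A to E and 60.9, 116, 118 and 68.7 CPM in sham replicates A to D. MCAO replicates A, B, C and E were above every sham library and D was not. The log2 fold change of *Bdnf* was 1.21 ± 0.30 with an adjusted p of 0.0533, which misses the threshold. *Inhba*, at low counts (17 to 104 in these libraries), measured 62.7, 40.6, 23.1, 12.5 and 31.9 CPM after MCAO and 15.0, 9.79, 15.7 and 10.4 CPM in sham. Again only replicate D of MCAO lay within the sham range, and the log2 fold change was 1.40 ± 0.42 (adjusted p = 0.162).

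*Homer1* measured 798, 474, 509.7, 333 and 592 CPM after MCAO and 418, 304, 330.3 and 286 CPM in sham at 3 h. Of the 5 MCAO libraries, 4 lay above the shams, with a log2 fold change of 0.69 ± 0.19 (adjusted p = 0.101). Against control in place of sham, *Homer1* was called (1.06 ± 0.19, adjusted p = 0.00155), as was *Nptx2* (2.85 ± 0.43, adjusted p = 0.00013). *Bdnf* and *Inhba* came to 1.38 ± 0.30 and 2.04 ± 0.44 against control, with adjusted p-values of 0.0143 and 0.0146.

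None of the 3 genes of dense-core vesicles was called at 3 h. *Scg2* measured 268, 371, 213, 128 and 286 CPM after MCAO and 172, 132, 161 and 117 CPM in sham, with 4 of 5 MCAO libraries above the shams and a log2 fold change of 0.80 ± 0.27 (adjusted p = 0.274). *Vgf* measured 480.4, 539.6, 328, 296 and 561 CPM after MCAO and 374, 381, 410.5 and 344 CPM in sham. Its MCAO libraries lay on both sides of the shams, 3 above and 2 below all of them, and the log2 fold change was 0.22 ± 0.26 (adjusted p = 0.887). *Pcsk1*, at 8 to 27 counts in these libraries, measured 14.5, 9.92, 7.97, 11.6 and 11.4 CPM and 10.3, 4.61, 8.07 and 4.91 CPM, with a log2 fold change of 0.63 ± 0.38 (adjusted p = 0.675). Without sham replicate C, which held the pituitary markers, the log2 fold changes were 0.85 for *Scg2*, 0.27 for *Vgf* and 0.70 for *Pcsk1*. Across the genes the MCAO libraries kept a similar order: replicate D was the lowest of the 5 for 6 of the 7 genes, and A, B and E were the highest 3 for 5 of the 7. How often this order held over all genes was not counted. The share of added spike-in RNA was 5.27% in replicate D and 4.01 to 4.36% in the other MCAO libraries of this time, and its part was not tested.

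**Figure D2:**
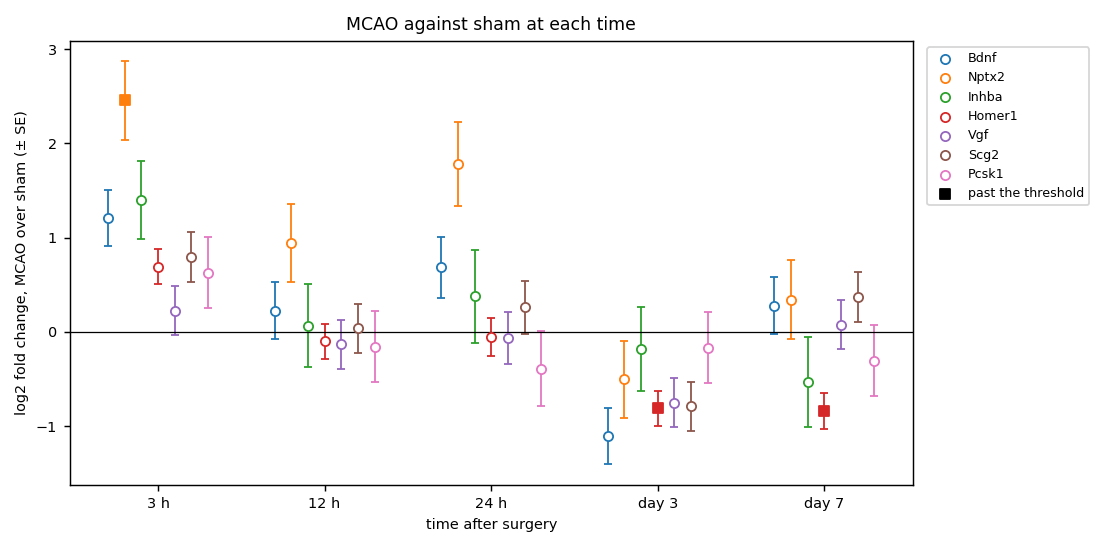
Log2 fold change of MCAO over sham for the 7 genes at the 5 times, with the standard error as bars and filled squares where the gene passed the threshold. The squares are *Nptx2* at 3 h (2.45) and *Homer1* on day 3 (-0.81) and day 7 (-0.84).

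At 12 h none of the 7 genes passed edgeR's test, beside 0.411% of all genes, and DESeq2 called 0. An unadjusted p under 0.05 was found for 1 of the 7, against 14.6% of all genes. The median log2 fold change was 0.04 over the 7 genes and 0.01 over all genes. *Nptx2* measured 35.2, 45.6, 93.9, 66.5 and 44.7 CPM in MCAO replicates A to E and 39.7, 24.0, 37.3 and 17.9 CPM in sham replicates A to D. Of the MCAO libraries 4 were above all shams, and the log2 fold change was 0.94 ± 0.42 (adjusted p = 0.274). *Bdnf* ranged from 52.2 to 79.2 CPM after MCAO and from 44.1 to 78.7 CPM in sham, and the ranges of the other 5 genes overlapped as well. Their log2 fold changes ran from -0.16 for *Pcsk1* to 0.07 for *Inhba*.

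At 24 h edgeR again called 0 of the 7 genes, beside 0.0901% of all genes, and DESeq2 called 0. An unadjusted p under 0.05 was found for 2 of the 7, against 8.8% of all genes. The median log2 fold change was 0.26 over the 7 genes and 0.02 over all genes. *Nptx2* measured 37.0, 166, 32.2 and 134 CPM in MCAO replicates A to D and 30.3, 27.8, 21.3 and 27.3 CPM in the shams. All 4 MCAO libraries lay above all 4 shams, but only B and D stood far from them, and the log2 fold change of 1.78 ± 0.44 had an adjusted p of 0.0643. *Bdnf* had the same high libraries, with 47.6, 119, 45.8 and 88.6 CPM after MCAO and 43.4, 44.9, 39.0 and 58.7 CPM in sham (0.69 ± 0.32, adjusted p = 0.53). Against control, whose mean of 80.3 ± 20.9 CPM (SD, n = 4) was above that of sham at 24 h (46.5 ± 8.52 CPM), the log2 fold change of *Bdnf* was -0.10 ± 0.31 (adjusted p = 0.958). Replicates B and D were the highest 2 of the MCAO libraries for 5 of the 7 genes, and how often this held over all genes was not counted. Striatal markers summed to 1228, 302, 225 and 2871 CPM in MCAO replicates A to D, so that of the 2 high libraries only D also held many of them. Without D the log2 fold change of *Nptx2* was 1.55 (adjusted p = 0.29) and that of *Inhba* turned from 0.38 to -0.14.

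On day 3 all 7 genes were lower after MCAO than in sham on average. *Homer1* fell and passed the test, and *Bdnf*, *Scg2* and *Vgf* came to between 0.464 and 0.594 of their sham level without passing. In the main test 1 of 7 was called, beside 4.02% of all genes. Of all genes called on day 3, 750 were higher and 52 lower, so a call in the direction of *Homer1* was rarer than that share. The median log2 fold change was -0.75 over the 7 genes and 0.01 over all genes, and 4 of the 7 had an unadjusted p under 0.05, against 21.6% of all genes.

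*Homer1* measured 182, 199.7, 134, 151 and 233 CPM in MCAO replicates A to E on day 3 and 379, 338, 267 and 278 CPM in sham replicates A to D. No MCAO library reached the lowest sham library. The means were 180.1 ± 39.1 CPM (SD, n = 5) and 316 ± 52.4 CPM (SD, n = 4), with a log2 fold change of -0.81 ± 0.19 and an adjusted p of 0.00281. The call was lost without MCAO replicate C (adjusted p = 0.0193) or D (0.0109) and without sham replicate A (0.0232) or B (0.0129), where the log2 fold change lay between -0.77 and -0.71. With only the compared groups in the fit it was -0.82 (adjusted p = 0.0101), and against control it was -0.53 ± 0.19 (adjusted p = 0.0802).

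*Bdnf* measured 51.8, 47.9, 24.0, 23.4 and 61.3 CPM after MCAO on day 3 and 94.3, 118, 87.8 and 59.5 CPM in sham. Replicate E of MCAO lay just above the lowest sham library and the other 4 lay below all shams. The log2 fold change was -1.11 ± 0.30 with an adjusted p of 0.0121. It passed with DESeq2 in place of edgeR (adjusted p = 0.00547), with scaling to the spike-ins (0.0084) and without MCAO replicate A (0.00764), MCAO replicate E (0.00783) or sham replicate D (0.00821).

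The granin genes were lower on average in the same comparison. *Vgf* measured 286, 245, 101, 290.1 and 182 CPM after MCAO and 387, 341, 401 and 358 CPM in sham, with no overlap, and its log2 fold change was -0.75 ± 0.26 (adjusted p = 0.061). *Scg2* measured 154, 97.2, 53.4, 149.9 and 76.2 CPM after MCAO and 161, 241, 153 and 178 CPM in sham. Only MCAO replicate A lay within the sham range of *Scg2*, and the log2 fold change was -0.79 ± 0.26 (adjusted p = 0.05). Replicate C was the lowest MCAO library for 5 of the 7 genes, and how often this held over all genes was not counted. The share of spike-in RNA was 5.97% in replicate C and 4.38 to 5.39% in the other MCAO libraries of day 3, and its part was not tested. *Nptx2*, *Inhba* and *Pcsk1* overlapped with sham, at log2 fold changes of -0.50 ± 0.41, -0.18 ± 0.44 and -0.17 ± 0.38.

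On day 7 *Homer1* was called lower than in sham and the other 6 genes were not called in either direction. *Homer1* measured 126, 147, 117, 174 and 206 CPM in MCAO replicates A to E and 254, 258, 266 and 326 CPM in sham replicates A to D. Again the groups did not overlap. The means were 154 ± 36.4 CPM (SD, n = 5) and 276 ± 33.5 CPM (SD, n = 4), with a log2 fold change of -0.84 ± 0.19 and an adjusted p of 0.00273. In the main test 1 of 7 genes was called on day 7, beside 3.5% of all genes. Of all genes called that day 413 were higher and 285 lower. An unadjusted p under 0.05 was found for 1 of the 7, against 23.5% of all genes. The call of *Homer1* was lost without MCAO replicate C (log2 fold change -0.76, adjusted p = 0.0171) or sham replicate D (-0.77, adjusted p = 0.0209). It was also lost with spike-in scaling (-0.72, adjusted p = 0.0477) and with only the compared groups in the fit (-0.84, adjusted p = 0.0102), and against control it was -0.75 ± 0.19 (adjusted p = 0.0127).

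*Bdnf* measured 50.8, 46.3, 48.8, 93.6 and 93.9 CPM after MCAO on day 7 and 58.4, 54.1, 60.0 and 47.9 CPM in sham, *Nptx2* 66.9, 33.1, 10.1, 67.7 and 37.0 and 25.8, 36.4, 36.0 and 37.9 CPM. MCAO replicates D and E were the highest for *Bdnf* and A and D for *Nptx2*, above all shams, while replicate C held the lowest value of *Nptx2* in the 48 libraries. Log2 fold changes of the 6 other genes ran from -0.53 for *Inhba* to 0.37 for *Scg2*, with adjusted p-values from 0.423 to 0.904, and the median over the 7 genes was 0.08 against 0.06 over all genes.

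Some neuron markers were called lower at the same times as *Homer1*. On day 3, 1 of 12 neuron markers was called lower after MCAO (*Snap25*, -0.67) and none higher, and their summed level was 7766 to 11740 CPM after MCAO against 11420 to 12750 CPM in sham. On day 7, 3 of 12 were called lower (*Rbfox3*, *Nefm* and *Eno2*), with sums of 7210 to 10980 against 11490 to 12590 CPM. Of 7 markers of cortical glutamatergic neurons, 0 were called on day 3 and 2 were called lower on day 7 (*Rorb* and *Nrgn*), with medians of -0.29 and -0.98 on the log2 scale and with no marker at 0 throughout a group. Of the markers of other cells and regions, 4 of 6 microglia, 2 of 5 granulocyte, 2 of 5 fibroblast, 2 of 5 endothelial, 1 of 6 astrocyte and 1 of 5 thalamic markers were called higher on day 3, and 3 of 6 microglia, 4 of 5 fibroblast, 2 of 6 astrocyte and 1 of 6 oligodendrocyte markers on day 7, when 1 of 6 GABAergic markers was called lower. No hippocampal or hypothalamic marker was called at these times. Microglia markers summed to 587 to 2279 CPM after MCAO against 228 to 339 CPM in sham on day 3. The deviations of *Homer1* from its group means went with the mean of the neuron markers at r = 0.155 over the 48 libraries. Such deviations take out the differences between groups, so this r cannot speak to the marker shifts between MCAO and sham. The part of the marker shifts in the values of *Homer1* was not tested. At 3 h the markers called in any list were *Prl* and *Gh* of the pituitary, lower after MCAO. Their sham levels came from replicate C, with 137.6 CPM of *Prl* and 375.6 CPM of *Gh*, and the other shams held almost none. The 5 granulocyte markers had a median of 2.91 with 0 called, and no marker of either neuron list was called. The neuron sums were 11240 to 11860 CPM after MCAO and 10790 to 12210 CPM in sham.

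The shams were compared with control to see what the surgery did by itself. None of the 7 genes passed edgeR's test at any time. The share of all genes called was 0.0% at 3 h, 0.0351% at 12 h, 0.01% at 24 h, 0.0% on day 3 and 0.0% on day 7. At 3 h 0 of the 7 genes had an unadjusted p under 0.05 (3.69% of all genes). At the later times 1, 2, 1 and 1 had one, against 5.43%, 4.31%, 3.66% and 8.03% of all genes. DESeq2 also called 0 of the 7 at each time. *Pcsk1* was the gene farthest from control. It measured 3.35, 3.37, 5.64 and 4.57 CPM in control replicates A to D, and its sham means lay between 6.97 and 9.42 CPM. The log2 fold changes over control were 0.74 ± 0.44 at 3 h, 0.92 ± 0.43 at 12 h, 1.16 ± 0.44 at 24 h, 0.94 ± 0.43 on day 3 and 1.15 ± 0.43 on day 7, with adjusted p-values of 0.578 to 1.0, and the 5 comparisons share the 4 control libraries, whose counts of *Pcsk1* were 6 to 10. *Bdnf* in sham at 24 h was below control at 43.4, 44.9, 39.0 and 58.7 against 73.1, 74.8, 111 and 62.8 CPM, without overlap, at -0.78 ± 0.32 (adjusted p = 1). Among the 5 sham groups 0 of the 7 genes differed by time in an F test (beside 0.0851% of all genes). The 2 with an unadjusted p under 0.05 were *Bdnf* (adjusted p = 0.491) and *Homer1* (adjusted p = 0.642), against 7.65% of all genes. Hours since surgery cannot be told apart from other features of the days on which these shams were taken.

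Whether the difference between MCAO and sham changed over the 5 times was tested in one F test per gene. It did for *Homer1* (adjusted p = 0.00107) and *Bdnf* (adjusted p = 0.00804), 2 of 7 beside 0.491% of all genes, and *Nptx2* was just outside (adjusted p = 0.0102). In this F test 5 of the 7 had an unadjusted p under 0.05, against 17.8% of all genes. With each of 44 libraries left out in turn *Homer1* passed every time. *Bdnf* missed in 18 of the 44 (adjusted p up to 0.0304), those without MCAO replicates A, B or E or sham replicates A or D at 3 h, replicate B of either group at 12 h, sham replicates A, B or C at 24 h, MCAO replicates B, C or D or sham replicates A, B or C on day 3, and sham replicates A or B on day 7. *Nptx2* passed in 16 of the 44 (adjusted p down to 0.00351). *Scg2* had 0.0691, *Inhba* 0.24, *Vgf* 0.372 and *Pcsk1* 0.612. Between one time and the next, 0 of the 7 passed in any of the 4 steps, and all genes passed in 0.01%, 0.01%, 0.01% and 0.0%. The step from 3 h to 12 h lowered the log2 difference by 1.51 for *Nptx2* (adjusted p = 0.628) and by 0.79 for *Homer1* (adjusted p = 0.56). In that step 5 of the 7 genes had an unadjusted p under 0.05, against 7.12% of all genes. From 24 h to day 3 the change was -2.28 ± 0.60 for *Nptx2* (adjusted p = 0.215) and -1.79 ± 0.44 for *Bdnf* (adjusted p = 0.144). From day 3 to day 7 it was 1.38 ± 0.43 for *Bdnf* and 1.16 ± 0.38 for *Scg2* (adjusted p = 0.111 and 0.126), while that of *Homer1* was -0.03 ± 0.27. The step from 12 h to 24 h had 0 genes of the 7 under an unadjusted p of 0.05, against 5.08% of all genes. The step from 24 h to day 3 had 4 of the 7, against 8.82%, and that from day 3 to day 7 had 3 of the 7, against 16.2%. DESeq2 called none of the 7 in any step.

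Other genes of the same activity programme were read from lists chosen by function. All 11 immediate early transcription factors were higher after MCAO at 3 h, with a median log2 fold change of 1.23, and 1 of 11 was called, *Fosb* (2.81 ± 0.54, adjusted p = 0.00647), a partner of JUN proteins in AP-1. *Fos* came to 1.80 ± 0.48 (adjusted p = 0.0946) and *Npas4*, a factor specific to neuronal activity, to 2.86 ± 0.81 (adjusted p = 0.131). Of 12 other activity-induced effectors all were higher as well, with a median of 0.98, and 1 was called, *Rgs2* (1.47 ± 0.30, adjusted p = 0.00963), which limits signalling by G proteins. *Arc*, which acts in the removal of AMPA receptors, came to 0.95 ± 0.45 (adjusted p = 0.554). At 12 h and 24 h no gene of these lists or of the 6 lists of receptors and partners was called. On day 3 and day 7 no immediate early factor was called, with medians of -0.26 and 1.07, and of the effectors *Nrn1* on day 3 (-0.80 ± 0.18, adjusted p = 0.00234) and *Rgs4* on day 7 (-1.23 ± 0.29, adjusted p = 0.00404) were called lower.

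**Figure D3:**
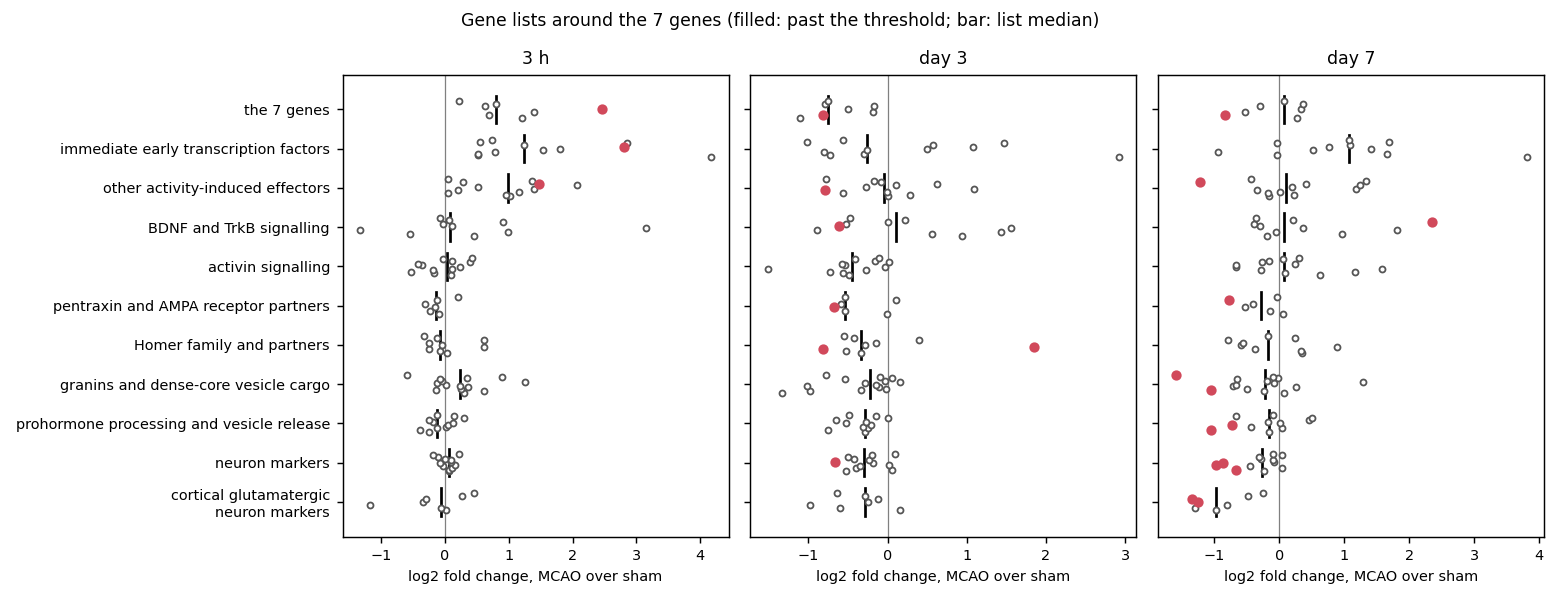
Log2 fold change of MCAO over sham at 3 h, day 3 and day 7 for each gene of the 7, of 8 lists of related genes and of 2 lists of neuron markers, with filled points for genes past the threshold and a bar at the list median. At 3 h the medians of the 7 genes (0.80), the immediate early factors (1.23) and the effectors (0.98) lie to the right of the receptor, partner and neuron marker lists, whose medians lie between -0.14 and 0.24.

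At 3 h no receptor or partner of the 7 proteins was called, in any of 6 lists. *Ntrk2*, which encodes TrkB, the receptor of BDNF, was 0.10 ± 0.12 at 3 h and was called lower on day 3 (-0.61 ± 0.12, adjusted p = 0.000494). *Plat*, which encodes a protease that generates plasmin, a cleaver of proBDNF, was called higher on day 7 (2.35 ± 0.56, adjusted p = 0.00476). Those were the 2 calls among the 10 genes of BDNF and TrkB signalling at the 5 times. Of the 12 genes of activin signalling 0 were called at any of the 5 times; *Acvr2a*, an activin receptor, came to 1.17 ± 0.35 on day 7 (adjusted p = 0.0243) and *Fst*, which encodes the activin inhibitor follistatin, to 1.58 ± 1.14 (adjusted p = 0.422).

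Of the 6 pentraxin and AMPA receptor partners, *Gria3*, an AMPA receptor subunit, was called lower on day 3 (-0.68 ± 0.17, adjusted p = 0.00817) and *Nptx1*, a pentraxin related to *Nptx2*, on day 7 (-0.78 ± 0.18, adjusted p = 0.00473). At 3 h *Nptx1* was -0.12 ± 0.18 and *Nptxr*, the membrane-bound pentraxin, 0.20 ± 0.31, beside 2.45 for *Nptx2*. In the list of Homer genes and partners, *Homer2* was called lower (-0.81 ± 0.21, adjusted p = 0.00832) and *Homer3* higher (1.85 ± 0.45, adjusted p = 0.00467) on day 3, and none of the 9 was called at another time.

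Among 14 granins and vesicle cargoes, 2 peptides of cortical interneurons were called lower on day 7, *Vip* (-1.59 ± 0.33, adjusted p = 0.00137) and *Cck* (-1.05 ± 0.24, adjusted p = 0.00284), the latter also made by other cortical neurons. The granins *Chga* and *Chgb* stayed between -0.50 and 0.63 over the 5 times and were not called. Of 11 genes of prohormone processing and vesicle release, *Cadps2* (-1.05 ± 0.24, adjusted p = 0.00329) and *Ica1* (-0.73 ± 0.17, adjusted p = 0.00424) were called lower on day 7. The enzymes *Pcsk2* and *Cpe*, which act with *Pcsk1*, were not called, with -0.19 ± 0.20 and -0.12 ± 0.14 at 3 h.

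The 7 genes were set against each other in 2 ways, as a description. Over the 11 group means of log2(CPM + 1), Pearson's r of the 21 pairs ranged from 0.141 (*Vgf* with *Pcsk1*) to 0.868 (*Inhba* with *Homer1*), with a median of 0.64. MCAO at 3 h held the highest mean of each of the 7 genes, and how far these values of r rest on that group was not tested. After each library was taken as its deviation from its group mean, the 48 libraries gave r between -0.267 (*Inhba* with *Pcsk1*) and 0.7 (*Vgf* with *Scg2*), with a median of 0.216. The pairs of *Bdnf* with *Nptx2* (0.665) and *Homer1* (0.586) and of *Nptx2* with *Homer1* (0.553) also stayed high, and *Bdnf* with *Inhba* fell from 0.826 to -0.00532. With the mean deviation of the immediate early factors the 7 genes had r from 0.022 (*Pcsk1*) to 0.489 (*Bdnf*), and with that of the neuron markers from -0.0962 (*Inhba*) to 0.377 (*Pcsk1*). With the cortical glutamatergic markers r ran from -0.419 (*Scg2*) and -0.396 (*Nptx2*) to 0.145 (*Pcsk1*). For the GABAergic markers it ran from -0.25 (*Bdnf*) to 0.403 (*Scg2*) and 0.423 (*Inhba*). For the striatal markers it ran from -0.0103 (*Pcsk1*) to 0.32 (*Inhba*), 0.33 (*Nptx2*) and 0.368 (*Scg2*). *Nptx2* had 0.528 with the astrocyte markers and 0.367 with the immediate early factors. The points share libraries and their depth.

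**Figure D4:**
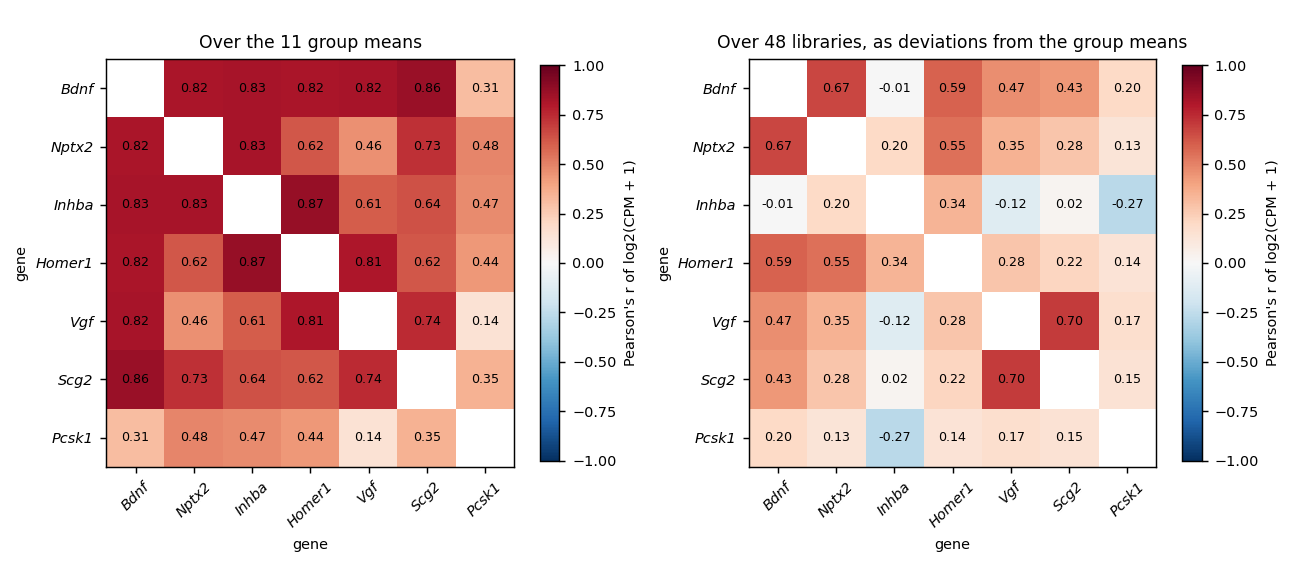
Pearson's r between the 7 genes on log2(CPM + 1), on the left over the 11 group means and on the right over the 48 libraries as deviations from their group means. The block of high values on the left (median 0.64) thins on the right (median 0.216), where *Vgf* with *Scg2* (0.7) and *Bdnf* with *Nptx2* (0.665) are the highest.

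Outside the 7 genes, the 3 genes whose 11 group means were most like those of each were taken from 11716 genes with a mean of at least 5 CPM. For *Nptx2* the nearest was *Slc2a3*, the neuronal glucose transporter GLUT3 (r = 0.986), followed by *Emd* (0.944) and *Med26* (0.922). *Bdnf* was nearest to *1810026B05Rik* (0.948), *Noct* (0.946) and *Speg* (0.938), and *Inhba* to *Dot1l* (0.951), *Pdzd2* (0.921) and *Npas4* (0.921). *Homer1* was nearest to *Camkk1* (0.946), *Ina* (0.946), which encodes a neurofilament protein, and *Igf1r* (0.928). For the vesicle genes the nearest were *Slc38a1* (0.955), *Arl5b* (0.94) and *Gm37629* (0.934) to *Vgf*, *Tada2b* (0.944), *Wdr61* (0.928) and *Rhbdl3* (0.924) to *Scg2*, and *Sgms1* (0.872), *Stum* (0.857) and *Gpr107* (0.831) to *Pcsk1*. With Spearman's rho in place of r, 1 of the 3 names was kept for *Bdnf*, *Nptx2* and *Homer1* each and 0 for the other 4 genes.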

How the data were processed

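Bulk 3′ RNA was measured in 48 mouse brain libraries of 11 groups (QuantSeq 3′ FWD kit with ERCC spike-ins). Per the methods, the authors first trimmed reads, removed ribosomal and mitochondrial reads, aligned with STAR 2.5.2b to GRCm38 and used htseq-count (union) with Gencode vM8, and they deposited raw counts per gene, 1 table per library. Whether the counting used strand is not given in the sources used here. A deposited matrix of normalized values was not used. Rows that name no gene (medians of 23.5% of alignments without a feature, 33.5% not unique and 0.4% ambiguous) and spike-ins (median 4.39% of gene and spike-in counts together) stayed out of library sizes and tests.

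Groups and replicates came from the labels. Symbols and coordinates came from Gencode vM21 and matched 46488 of 46983 genes. The 19970 genes whose counts summed to more than 10 were fitted with edgeR 4.0.16 in R 4.3.3 (TMM, glmQLFit, glmQLFTest) in one model of the 11 groups, with Benjamini-Hochberg adjustment over all genes and calls at an adjusted p below 0.01 and a log2 fold change beyond 0.58 in either direction (F tests by adjusted p alone). The fit was tested on simulated data. The standard error is the absolute log2 fold change over the square root of F. Values, motifs and figures were made in Python 3.11.15 with pandas 2.3.3 and matplotlib 3.10.9. All 7 genes are named; of each list up to 3 called genes with the largest change in MCAO against sham at any of the 5 times, and 12 receptors, partners and early genes, are named, as are the 3 genes of most like pattern. The 7 genes and the lists were chosen with earlier results of these data known. Lists of granulocyte, fibroblast, endothelial, astrocyte, oligodendrocyte, GABAergic, hippocampal, hypothalamic and thalamic markers were measured as well. Alternatives were DESeq2 size factors, DESeq2 1.42.0, spike-in scaling, filterByExpr, no filter, only the groups compared, control in place of sham, the replicate letter as a block, each of the 48 libraries left out and Spearman's rho. The spatial and single-cell data of the study were not analysed here. 1 marker gene was left out of its list and is not reported here.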

Additional observations from a re-analysis of the deposited data

Results flagged for a closer look

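Each of the 7 genes was tested in each of the 11 groups for a library far from the others, by the ratio of its gap to the group's range on log2(CPM + 1), with Dixon's 95% limits. Of 77 such sets 5 had one, and chance flags about 1 in 20. *Nptx2* in sham on day 7 was 25.8 CPM in replicate A, below the other 3 at 36.0 to 37.9 CPM. *Inhba* in sham at 12 h was 17.9 CPM in replicate A, above the other 3 at 7.76 to 8.86 CPM. At 24 h after MCAO, replicate D was far from the others for 2 genes, with *Inhba* at 20.2 CPM (others 6.37 to 7.48 CPM) and *Pcsk1* at 3.06 CPM (others 7.63 to 8.92 CPM). That library also had the highest sum of striatal markers of its group (2871 CPM), whose part was not tested. *Scg2* in control replicate C was 183 CPM, above the other 3 at 153.0 to 156 CPM.

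The difference between MCAO and sham was not the same at the 5 times for *Homer1* (F test, adjusted p = 0.00107), with log2 fold changes of 0.69, -0.10, -0.06, -0.81 and -0.84 from 3 h to day 7. The same held for *Bdnf* (adjusted p = 0.00804), with 1.21, 0.23, 0.69, -1.11 and 0.28.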

How the results depend on the processing

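Apart from left-out libraries, the number called among the 7 was within 1.5 times of the main test in 101 combinations of comparison and alternative, lower in 6 and higher in 8. Most comparisons had 0 of the 7 called in the main test, so most of the 101 set 0 against 0 and say little about stability. Apart from a rise at 24 h, the changes fell on the comparisons with a call, which were 3 h, day 3, day 7 and the F test over the 5 times. Without a filter on low counts the counts rose to 2 at 3 h, 1 at 24 h, 2 on day 3 and 4 in the F test over the 5 times (main 1, 0, 1 and 2). The count on day 3 was also 2 with spike-in scaling, DESeq2 and the replicate block, each time through *Bdnf*. It was 0 on days 3 and 7 with only the groups compared, where *Homer1* had adjusted p-values of 0.0101 and 0.0102, and with control in place of sham, which gave 2 at 3 h. Spike-in scaling gave 0 on day 7, and only the groups compared gave 1 in the F test. With each library left out in turn, the count ranged from 0 to 1 at 3 h, from 0 to 2 on day 3, from 0 to 1 on day 7 and from 1 to 3 in the F test.

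Signs turned only in differences that did not pass the test in either setting: with spike-in scaling *Inhba* (-0.0045) and *Scg2* (-0.0784) at 12 h and *Homer1* (0.0606) and *Vgf* (0.0435) at 24 h, and with the replicate block *Scg2* at 12 h (-0.0421). With control in place of sham they turned for *Bdnf* at 12 h (-0.22), 24 h (-0.10) and day 7 (-0.27), for *Pcsk1* at 12 h, 24 h, day 3 and day 7 (0.77, 0.77, 0.77 and 0.85), for *Nptx2* (0.10) and *Inhba* (0.10) on day 3, and for *Vgf* (-0.47) and *Scg2* (-0.0351) on day 7. Left-out libraries turned the sign at 12 h for *Inhba* (-0.0665 to 0.405), *Vgf* (-0.411 to 0.053) and *Scg2* (-0.0851 to 0.164), at 24 h for *Inhba* (-0.143 to 0.585), *Homer1* (-0.165 to 0.0851) and *Vgf* (-0.193 to 0.0559), on day 3 for *Inhba* (-0.482 to 0.0889) and *Pcsk1* (-0.352 to 0.0868), and on day 7 for *Vgf* (-0.0987 to 0.237) and *Pcsk1* (-0.467 to 0.0382). The cause was not tested. Same-lettered libraries of different groups did not deviate together in the median (226 pairs, median r 0.00556, against -0.00375 for other letters). Over 0.1 were 55 of the 226 same-letter pairs and 165 of the 820 other pairs. A median over all pairs cannot show whether same-lettered libraries of one time shared a batch. Between same-lettered MCAO and sham libraries of the same time, r ran from -0.261 (replicate D at 12 h) to 0.148 (replicate A at 24 h). A shared batch was not tested. The replicate block gave -1.23 for *Bdnf* on day 3 (adjusted p = 0.00451) and changed no other call of a single gene. Over all genes, the calls of MCAO against sham from 3 h to day 7 were 22, 82, 18, 802 and 698 in the main test, 58, 179, 44, 1033 and 1096 with DESeq2, 58, 171, 55, 931 and 998 without a filter, 44, 13, 51, 339 and 302 with only the groups compared, and 14, 58, 39, 594 and 489 with spike-in scaling. The replicate block gave 53 at 12 h. For sham against control the calls were 0, 7, 2, 0 and 0, with 0, 11, 14, 1 and 0 by DESeq2, 4, 10, 7, 1 and 1 without a filter, 0, 1, 23, 4 and 0 with only the groups compared, 5 and 6 at 12 h and 24 h with spike-in scaling, and 4 at 12 h with the block. Without a filter the F tests over the 5 times gave 321 for the difference from sham (main 98) and 30 among the shams (main 17), and the 4 steps between times gave 5, 2, 6 and 37 (main 2, 2, 2 and 0; DESeq2 3, 3, 5 and 57; only the groups compared 1, 2, 2 and 1; DESeq2 size factors 3 and spike-in scaling 1 in the last). The depth limits *Pcsk1* (3 to 34 counts) and *Inhba* (3 to 104).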
